A study of Mus musculus with 12 samples.

Results

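The rows described here are the pseudogenes of ribosomal proteins in wild-type and Drosha-deficient mouse embryonic stem (ES) cells. They were chosen by name: a gene name that starts with Rpl (large ribosomal subunit) or Rps (small subunit) and contains -ps. This gave 226 of the 36883 rows of each expression table, 137 named for a large-subunit and 89 for a small-subunit protein. The text before -ps names the parent gene, and 58 parents are named in all. Of the 226, RefSeq lists 215 as pseudogenes, 6 as transcribed pseudogenes and 1, Rpl34-ps1, as protein-coding, while 4 had no match. Whether each row is a processed copy was read from its name only and was not checked in sequence.

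The series asked how RNA and CG methylation differ between wild-type ES cells, cultured cells of the early embryo, and cells of the same kind deficient in Drosha, which in the nucleus releases microRNA hairpins from their primary transcripts. Both lines of the methylation samples have the 129Sv/Ev background, the Drosha-deficient line being derived from the wild-type AB1 line; the labels of the RNA samples give the genotype alone. Cells of both genotypes were grown in serum with leukemia inhibitory factor. Each genotype has 1 library of poly(A)-selected mRNA, 1 of long RNA and 1 of short RNA, and no library has a replicate. Every difference below therefore compares a pair of libraries, and neither a standard deviation nor a p-value can be given. The sources used here do not give how the Drosha locus was disrupted, nor whether the line is 1 clone.

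A processed pseudogene forms when a spliced mRNA is copied into DNA and inserted elsewhere in the genome. Ribosomal protein mRNAs are short and very abundant, and they have left more such copies in mammalian genomes than almost any other gene family. A copy usually lacks introns and a promoter of its own and closely resembles the parent mRNA, so a short read from the parent can align to its copies as well. The sources used here do not say whether such reads were kept, shared out or dropped. A value for a pseudogene row is thus the signal assigned to that row, and transcription of the copy cannot be told apart from reads of the parent or of another copy.

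Levels are in FPKM, fragments per kilobase of transcript scaled to library size, as deposited. Measured rows are those with the status OK in the authors' table and 1 FPKM or more in either library. The log2 difference of a row is Drosha-deficient minus wild type on log2(FPKM + 1), which understates the differences of low rows. The words higher and lower mean a log2 difference of at least 1 or at most -1, which is 2-fold on that scale, with wild type as the reference. Fold values of single rows are plain FPKM ratios. Paired values below give the wild-type library first. Drosha itself had 42.1 and 6.22 FPKM in mRNA, and in long RNA 21.2 and 4.34 FPKM. All 10 ES cell markers were measured in both fractions. Their summed level was 2350 and 2492 FPKM in mRNA. In long RNA it was 992 and 979.5 FPKM. Of the 10 fibroblast markers 8 were measured in mRNA, 5 were lower and none was higher, and their summed level went from 483 to 280 FPKM. In long RNA 6 of 8 were lower, from 259 to 145 FPKM. Among them Col1a1 had 59.9 and 4.10 FPKM in mRNA and Lum was listed at 0 in the wild-type library. The part of this marker difference in the pseudogene values was not tested.

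In mRNA 175 of the 226 pseudogene rows were measured. Another 24 carried a status of not tested and 27 were under 1 FPKM in both libraries. Of the 175, 48 were higher in Drosha-deficient cells and 30 were lower, against 8.64% higher and 7.93% lower among all 14752 measured rows (16.6% called). The 97 others were called neither way. The median log2 difference was -0.16, beside 0.01 for all measured rows. In long RNA 172 were measured, 46 were higher and 26 lower, against 6.26% and 6.89% of 13933 rows (13.1% called), with a median of -0.16 beside -0.04. The counts depended on the settings: in mRNA 9 were lower with a pseudocount of 5 FPKM and 57 with a 1.5-fold rule. Centred on other pseudogenes of the same strand, a setting added after seeing the data, 29 were higher and 11 lower. In long RNA the pseudocount of 5 FPKM gave 24 higher and 11 lower, the 1.5-fold rule 59 lower, and the centring 27 higher and 6 lower. With the pseudocount of 1 FPKM, shares of calls were above those of all rows and the medians were near 0.

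The direction of these calls followed the genomic strand on which the pseudogene lies. Every one of the 48 rows called higher in mRNA lies on the minus strand, and every one of the 30 called lower lies on the plus strand. Among 84 measured minus-strand rows the median log2 difference was 1.22 and none was lower. Among 91 measured plus-strand rows the median was -0.69 and none was higher. Long RNA, from separate libraries, gave the same division. There 46 of 83 minus-strand rows were higher with a median of 1.13, and 26 of 89 plus-strand rows were lower with a median of -0.77. No row was called against its strand. All measured rows leaned the same way. In mRNA 10.1% were lower and 6.41% higher on the plus strand, and 11.0% higher and 5.61% lower on the minus strand. In long RNA 9.42% were lower and 3.87% higher on plus, and 8.84% higher and 4.15% lower on minus. Strand was read from the order of the rows. It matched the strand given with reference promoter sequences in 16787 of 16789 rows that could be compared. That reference held no pseudogene entry, so the strand of the pseudogene rows rests on row order alone. The division by strand was made after the values had been seen.

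**Figure D1:**
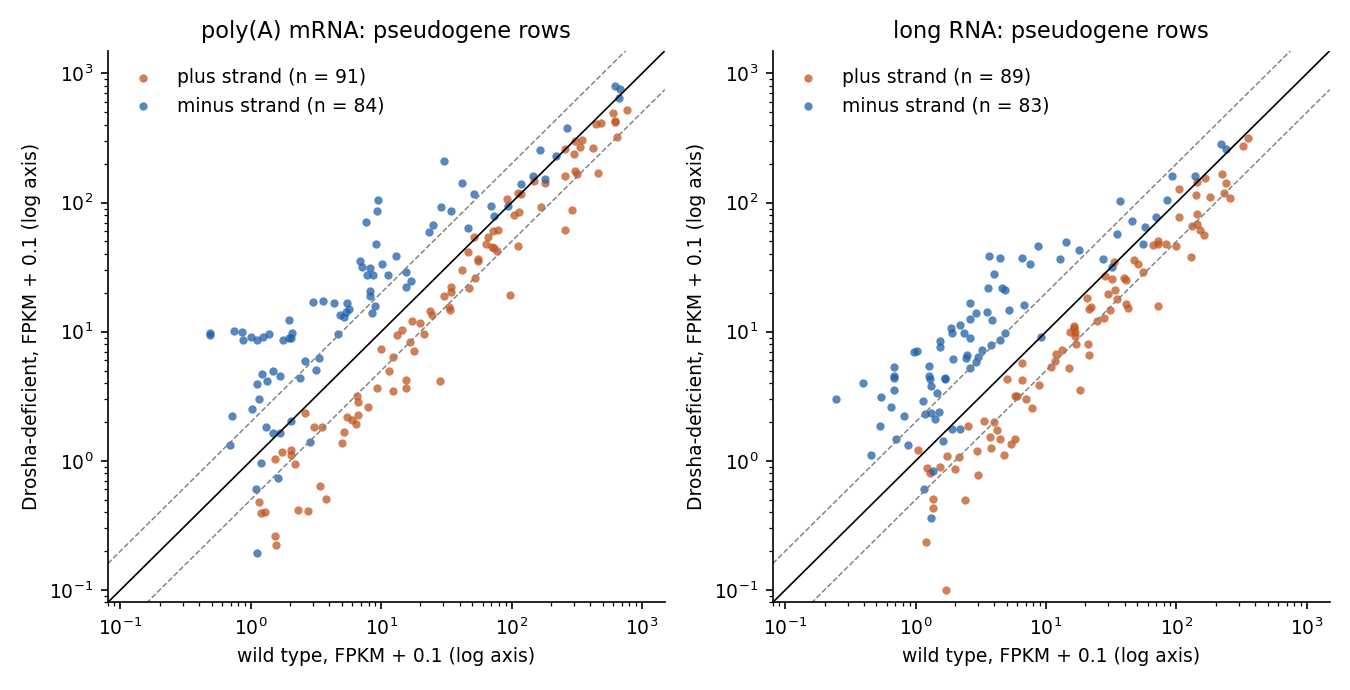
FPKM of each measured pseudogene row in the Drosha-deficient library (vertical) against the wild-type library (horizontal), both on log axes with 0.1 added, in mRNA (left) and long RNA (right). The solid line marks equal levels and the dashed lines 2-fold. Minus-strand rows (blue) lie mostly above the solid line and plus-strand rows (orange) mostly below it.

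None of the exceptions in sign reached the size rule. In mRNA 4 plus-strand rows had a difference above 0, Rpl5-ps1, Rps19-ps1, Rpl30-ps1 and Rpl30-ps10, with at most 0.22. There were 9 minus-strand rows below 0, and the lowest of them was Rpl21-ps5 at -0.89, a row with 1.03 and 0.0924 FPKM. Rows of both subunits showed the division. Of 45 measured large-subunit rows on the minus strand 24 were higher, and of 51 on the plus strand 17 were lower. For the small subunit these counts were 24 of 39 and 13 of 40.

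Summed over all members, the mRNA levels came to 14557 FPKM for wild type and 12915 FPKM for Drosha-deficient cells. The plus-strand rows went from 10689 to 7263 FPKM and the minus-strand rows from 3869 to 5652 FPKM. Hence the total hid opposite differences on the 2 strands. In long RNA the plus-strand rows went from 4802 to 3054 FPKM and the minus-strand rows from 1348 to 2223 FPKM.

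The 74 genes of cytosolic ribosomal proteins showed the same direction by strand, with medians of smaller size. Of 40 measured plus-strand genes in mRNA 11 were lower and 1, Rpl17, was higher, with a median log2 difference of -0.54. Of 33 minus-strand genes 10 were higher, with a median of 0.44, and none was lower. Among the 55 parent genes, a set that overlaps these, 8 of 30 measured on the plus strand were lower and 1 higher, and 8 of 24 on the minus strand were higher. Other pseudogenes, of any parent, had medians of -0.55 over 810 plus-strand and 0.58 over 643 minus-strand rows, with 200 lower and 28 higher on the plus strand and 210 higher and 18 lower on the minus strand. Other protein-coding genes had no such division: their medians were 0.00 over 5528 plus-strand and 0.03 over 5434 minus-strand rows. On the plus strand 297 of them were higher and 372 lower, and on the minus strand 323 were higher and 309 lower. The same comparison in long RNA gave medians of -0.60 and 0.26 for ribosomal protein genes, -0.56 and 0.57 for other pseudogenes, and -0.04 and -0.02 for other protein-coding genes. Counts by strand for the pseudogenes of ribosomal proteins therefore stand beside a strand difference that other pseudogenes share. What produced it was not tested, and with 1 library per genotype it cannot be told apart from the genotype.

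**Figure D2:**
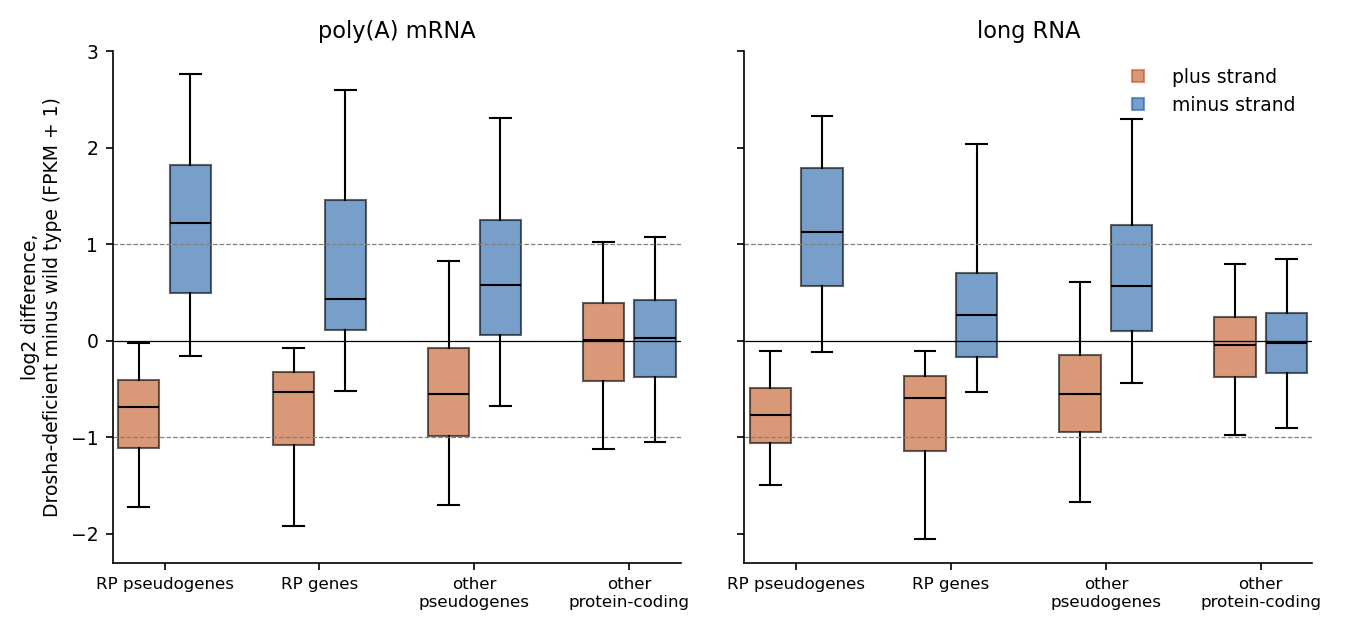
Log2 differences (Drosha-deficient minus wild type, FPKM + 1) of measured rows on the plus (orange) and minus (blue) strand for ribosomal protein (RP) pseudogenes, RP genes, other pseudogenes and other protein-coding genes, in mRNA (left) and long RNA (right). Boxes span the quartiles with the median as a line, whiskers the 5th to 95th percentile, and dashed lines mark 2-fold. The strands separate in the first 3 sets, with mRNA medians of -0.69 and 1.22 for the RP pseudogenes, and coincide near 0 in the last.

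Calls were also counted by level, for the pseudogene rows alone, so these counts have no share over all rows beside them. Whether rows of other kinds differ by level in the same way was not tested. Sorted by the mean of both libraries in mRNA, 23 of 41 minus-strand rows under 10 FPKM and 24 of 33 between 10 and 100 FPKM were higher, as was 1 of 10 at 100 FPKM or more, Rps13-ps2. On the plus strand 19 of 33, 8 of 34 and 3 of 24 were lower, in the same order. The median log2 difference of the most abundant minus-strand class was 0.19 and that of the most abundant plus-strand class -0.44. In long RNA 32 of 57, 14 of 22 and 0 of 4 minus-strand rows were higher in these classes. On the plus strand 11 of 35, 11 of 39 and 4 of 15 were lower, with medians of -0.77, -0.71 and -0.72.

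The row with the largest positive difference in both fractions was Rpl36a-ps1 (chromosome 14, 98993870 to 98994349, GRCm38, minus strand), a copy of a large-subunit gene. Its mRNA level was 9.29 FPKM without and 104 FPKM with the Drosha deficiency, 11.2-fold higher. In long RNA it had 3.58 and 38.3 FPKM. Its parent Rpl36a, on the plus strand, had 187 and 129 FPKM in mRNA. Rpsa-ps2 (chromosome 10, 128776301 to 128777329), a copy of the gene of the laminin receptor protein of the small subunit, had 9.16 and 85.3 FPKM in mRNA. Its long RNA values were 4.35 and 36.8 FPKM. Parent and copy again differed, since Rpsa had 115 and 81.5 FPKM in mRNA. Rpl12-ps1 (chromosome 1, 36957886 to 36958516) was 9.39-fold higher in mRNA, at 7.53 and 70.6 FPKM, whereas Rpl12, a protein of the ribosomal stalk base, was lower, at 423 and 124 FPKM.

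Rps13-ps2 (chromosome 7, 88530403 to 88530924) was the most abundant row called higher, with 30.0 and 209.8 FPKM in mRNA. Long RNA gave 8.53 and 46.3 FPKM. Rpl30-ps11 and Rpl30-ps9, both on the X chromosome, had 0.760 and 9.85 FPKM, and 28.4 and 92.2 FPKM, in mRNA. Their differences in long RNA were 2.09 and 2.35. Rps23-ps2 and Rpl31-ps9 completed the 8 highest rows of long RNA, with 3.49 and 21.7 FPKM and 2.50 and 16.6 FPKM. All of these rows lie on the minus strand, and the parents of Rpl36a-ps1, Rpsa-ps2, Rpl12-ps1, Rps23-ps2 and Rpl31-ps9 lie on the plus strand.

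At the other end stood Rps29-ps (chromosome 5, 135006565 to 135006812, plus strand), a copy of the gene of a zinc-binding small-subunit protein. Its mRNA values of 28.0 and 4.09 FPKM differ 6.85-fold, with the Drosha-deficient library lower, and those of long RNA were 18.1 and 3.44 FPKM. Its parent Rps29, on the minus strand, had 19.5 and 146 FPKM in mRNA, so the row and its parent were called in opposite directions. Rps15a-ps3 (chromosome 4, 150847090 to 150847541) had 98.1 and 19.3 FPKM in mRNA, while Rps15a was called neither way, at 263 and 274 FPKM. Rps15a-ps3 was also lower in long RNA, at 71.6 and 15.6 FPKM. Rpl36a-ps3 (chromosome 6, 136488735 to 136489200) had 259 and 61.1 FPKM, 4.24-fold lower in mRNA. In long RNA it had 162.2 and 55.7 FPKM.

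The last pair of Rpl36a copies shows the division most directly. Rpl36a-ps1 on the minus strand was higher and Rpl36a-ps3 on the plus strand was lower, in mRNA and in long RNA. Rpl38-ps1 (292 and 86.8 FPKM), Rpl19-ps12 (15.4 and 3.59 FPKM), Rps27-ps1 (15.3 and 4.11 FPKM), Rpl36-ps10 (12.2 and 3.39 FPKM) and Rpl13-ps5 (3.65 and 0.409 FPKM) completed the 8 lowest rows of mRNA. All are on the plus strand. Of these, Rpl13-ps5 was not called in long RNA, with 2.04 and 0.979 FPKM. Rpl26-ps4 was among the 8 lowest rows of long RNA, with 21.3 and 6.47 FPKM.

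Of the 8 most abundant rows of mRNA none was called, although Rpl39-ps came close at a log2 difference of -0.98. Rps13-ps1 (chromosome 8, 87047694 to 87048215, plus strand) had the highest wild-type level in mRNA, 772 FPKM, and 518 FPKM in the Drosha-deficient library. Rpl10a-ps1, on the minus strand, had 678 and 752 FPKM, Rps16-ps2 had 623 and 801 FPKM, and Rpl38-ps2 had 663 and 642 FPKM. Rpl39-ps, Rps10-ps1, Rpl3-ps1 and Rpl14-ps1 had 640 and 325, 624 and 428, 617 and 420, and 603 and 491 FPKM. These 4 are on the plus strand. In long RNA Rps10-ps1 was lower, at 256 and 108 FPKM. In long RNA Rps24-ps3 was also among the 8 most abundant rows, at 242 and 141 FPKM.

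Members measured in both fractions numbered 166. Of these 42 were higher in both, 19 were lower in both and none was called in opposite directions, which is 36.7% called the same way in both, beside 8.7% of all rows measured in both. Another 6 were higher in mRNA only and 4 in long RNA only, and 11 and 7 were lower in 1 fraction only, in that order. All rows in these last counts were measured in both fractions and were called neither way in the other fraction. Within the plus strand the differences of both fractions had a Pearson correlation of 0.69 over 87 rows, and within the minus strand 0.86 over 79 rows. These describe rows that share a pair of cell lines and, for copies of 1 parent, sequence.

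**Figure D3:**
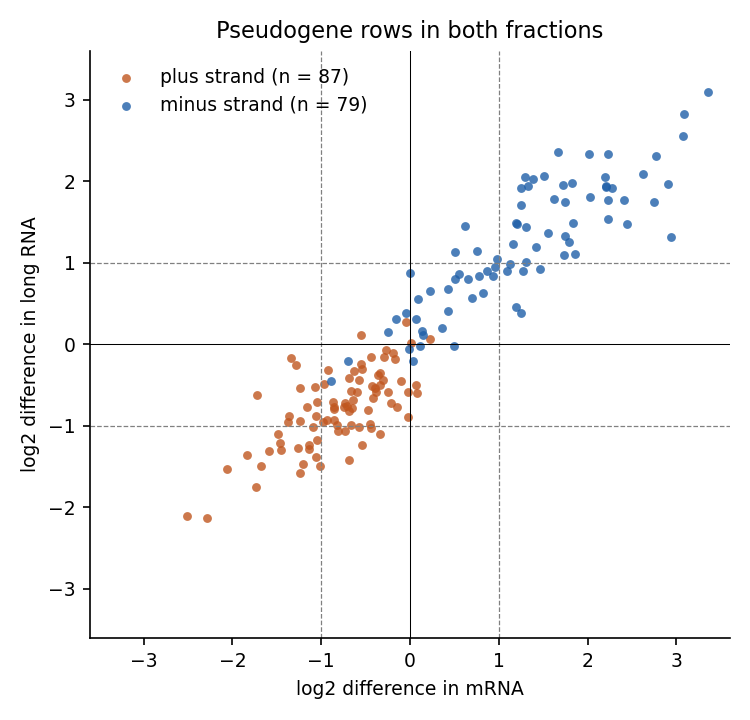
Log2 difference (Drosha-deficient minus wild type, FPKM + 1) of each pseudogene row in long RNA (vertical) against mRNA (horizontal), for the 166 rows measured in both fractions, with dashed lines at 2-fold. Plus-strand rows (orange, n = 87) fill the lower left and minus-strand rows (blue, n = 79) the upper right, and no row is called in opposite directions.

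Comparison with the parent gene bears on reads shared between a copy and its source. Of the 58 parents 55 have a row of their own, which covers 222 members. In mRNA 171 members and their parents were both measured. The member's log2 difference was at least 1 above that of the parent in 54 and at least 1 below it in 33, so 50.9% were at least 1 away, beside 28.9% of 90 other rows named -ps. In long RNA 61 of 169 were above and 20 below, 47.9%, beside 28.7% of 87. Over these rows member and parent differences had a Pearson correlation of -0.07 in mRNA and -0.08 in long RNA. Members of 1 parent share that parent's value.

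The distance from the parent again followed strand. For 52 plus-strand members of plus-strand parents the median distance was -0.13 in mRNA, with 1 at least 1 above and 6 at least 1 below. For 37 plus-strand members of minus-strand parents it was -1.55, with 25 at least 1 below. For 48 minus-strand members of plus-strand parents it was 1.66, with 35 at least 1 above. Minus-strand members of minus-strand parents, 34 in number, stood 1.09 above their parents, with 18 at least 1 above. This last group differed from its parents although the strand was the same, but its pairs are not separate. It holds the 10 minus-strand copies of Rps12, which share 1 parent value. Without the 13 Rps12 copies on the X chromosome described below, 45 members of either strand were at least 1 above their parent, against 54 with them.

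A row could also exceed its parent in level, on the FPKM scale that accounts for length. This held for 37 of 171 members in the wild-type and 32 in the Drosha-deficient mRNA library. Rps13-ps1 had 772 and 518 FPKM where Rps13, of the small subunit, had 8.58 and 48.1 FPKM. Rpl3-ps1 had 617 and 420 FPKM where Rpl3, whose protein lies near the peptidyl transferase centre, had 44.4 and 247 FPKM. Rpl10a-ps1, by contrast, began level with Rpl10a, at 678 and 684 FPKM in the wild-type library, and stood above it in the Drosha-deficient library, at 752 and 179 FPKM.

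Parents with many copies show how members of 1 family divided. Rpl31, a large-subunit protein at the exit of the peptide tunnel, names 21 rows, of which 11 were measured in mRNA. Its 6 measured minus-strand copies ranged from -0.25 to 2.01 and 4 were higher. The 5 plus-strand copies ranged from -1.34 to -0.71 and 2 were lower. Rpl31 itself, on the plus strand, had 269 and 75.7 FPKM, a log2 difference of -1.82. The abundant copy Rpl31-ps8, on the minus strand, had 180 and 151 FPKM.

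Rpsa names 9 rows, all measured in mRNA. The 5 minus-strand copies lay between 0.78 and 3.09 and the 4 plus-strand copies between -0.83 and -0.40. Rpl35a names 6 rows, and its 5 minus-strand copies were all higher in mRNA, from 1.27 to 2.02. Its plus-strand copy Rpl35a-ps5 was lower, at 21.1 and 9.57 FPKM, and Rpl35a itself had 36.1 and 21.9 FPKM. Rpl36 showed the reverse composition: 3 of its 5 measured copies, all on the plus strand, were lower, and Rpl36 was lower as well, at 111 and 51.3 FPKM.

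Other large families had few calls. Of 13 Rpl21 rows 6 were measured in mRNA, the highest of them Rpl21-ps11 at 3.08 and 4.99 FPKM, and none was called. Rps19 names 13 rows, of which 10 were measured, and 2 minus-strand copies were higher, Rps19-ps3 and Rps19-ps10. Rpl23a names 11 rows, but 3 were measured in mRNA, all on the plus strand, and Rpl23a-ps1 was lower at 9.21 and 3.58 FPKM. Rps15a names 7 rows, all measured. The minus-strand copy Rps15a-ps4 was higher, at 8.61 and 27.3 FPKM, and the other 5 minus-strand copies were called neither way.

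In 24 families copies on both strands were measured in mRNA. In 22 of them every minus-strand copy had a larger difference than every plus-strand copy. Rpl21 and Rps19 were the exceptions. In long RNA this held for 21 of 23 families, the exceptions being Rpl21 and Rpl31. In 11 families at least 1 copy was higher and another lower in mRNA, so a family-wide direction could not be given for them.

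**Figure D4:**
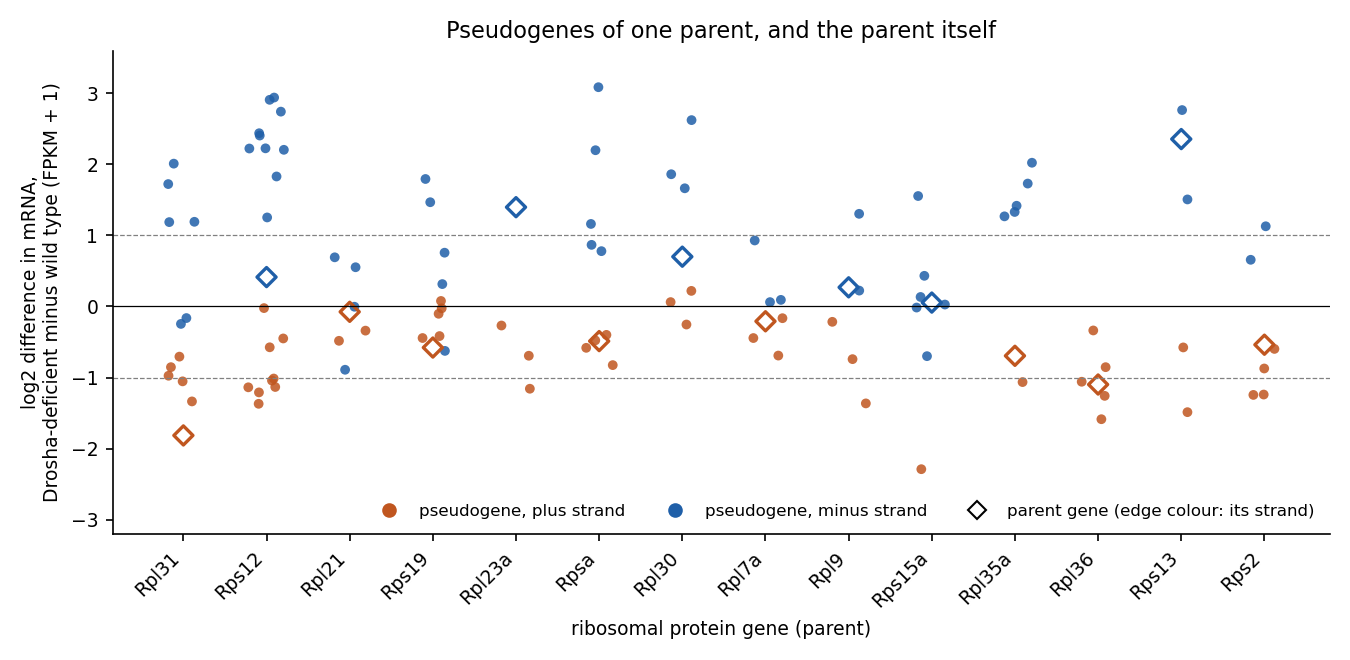
Log2 differences in mRNA (Drosha-deficient minus wild type, FPKM + 1) of the measured copies of each parent with at least 6 pseudogene rows, ordered by number of rows, with dashed lines at 2-fold. Dots are copies on the plus (orange) or minus (blue) strand, spread sideways for sight, and open diamonds are the parents, coloured by their own strand. Blue dots stand above orange dots in every family with both except Rpl21 and Rps19.

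The Rps12 family holds a set of near-equal rows that show the division within a single region. Rps12, a small-subunit protein gene on the minus strand, had 35.7 and 47.9 FPKM in mRNA, and names 19 rows, all measured. Of these, 13 lie on the X chromosome between 123285044 and 125987364 (GRCm38). The 4 nearest the start of that interval, Rps12-ps21, Rps12-ps22, Rps12-ps23 and Rps12-ps20, are on the plus strand and each span 402 bases. The 9 others, from Rps12-ps6 to Rps12-ps16, are on the minus strand and each span 399 bases. The 21 other rows of the tables in this interval were all listed at 0 in both mRNA libraries.

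In wild-type mRNA the 9 minus-strand copies lay between 0.383 and 1.66 FPKM. In Drosha-deficient mRNA they lay between 8.47 and 9.97 FPKM. These are ranges over similar copies within 1 library each, not over replicates. The 4 plus-strand copies went the other way. Rps12-ps21 had 6.34 and 1.84 FPKM, Rps12-ps22 had 5.32 and 2.07 FPKM, Rps12-ps23 had 6.59 and 2.76 FPKM and Rps12-ps20 had 5.83 and 1.95 FPKM. In long RNA the minus-strand copies had 0.147 to 1.17 FPKM and then 2.91 to 5.32 FPKM, and the plus-strand copies had 4.08 to 5.24 FPKM and then at most 1.63 FPKM. All 13 were called in mRNA, and in long RNA all but Rps12-ps21 were.

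Because rows of equal length share what 1 fragment is worth, fragments could be read from these values. In mRNA 1 fragment on a 399-base copy stood for 0.128 FPKM (wild type) and 0.116 FPKM (Drosha-deficient). Every copy was a whole multiple of that step within 0.02 of a fragment, as were all 10 and 9 other rows of that length with signal in these libraries. The wild-type copies held 3 to 13 fragments each and 64 in all (95% exact Poisson interval 49.3 to 81.7). The Drosha-deficient copies held 73 to 86 each and 708 in all (657 to 762). The summed level was thus 10.04-fold higher, with an exact conditional interval of 7.76 to 13.2. For the plus-strand copies 190 and 75 fragments gave a sum 2.79-fold lower (2.13 to 3.70). In long RNA the sums were 6.62-fold higher (4.71 to 9.55) and 3.48-fold lower (2.44 to 5.06). The intervals cover counting error only and take fragments as counted once, also across copies, which the sources used here do not state. They make no allowance for grouping the copies by strand after the values had been seen. Minus-strand copies under 1 FPKM in the wild-type library counted as measured through the Drosha-deficient library alone.

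**Figure D5:**
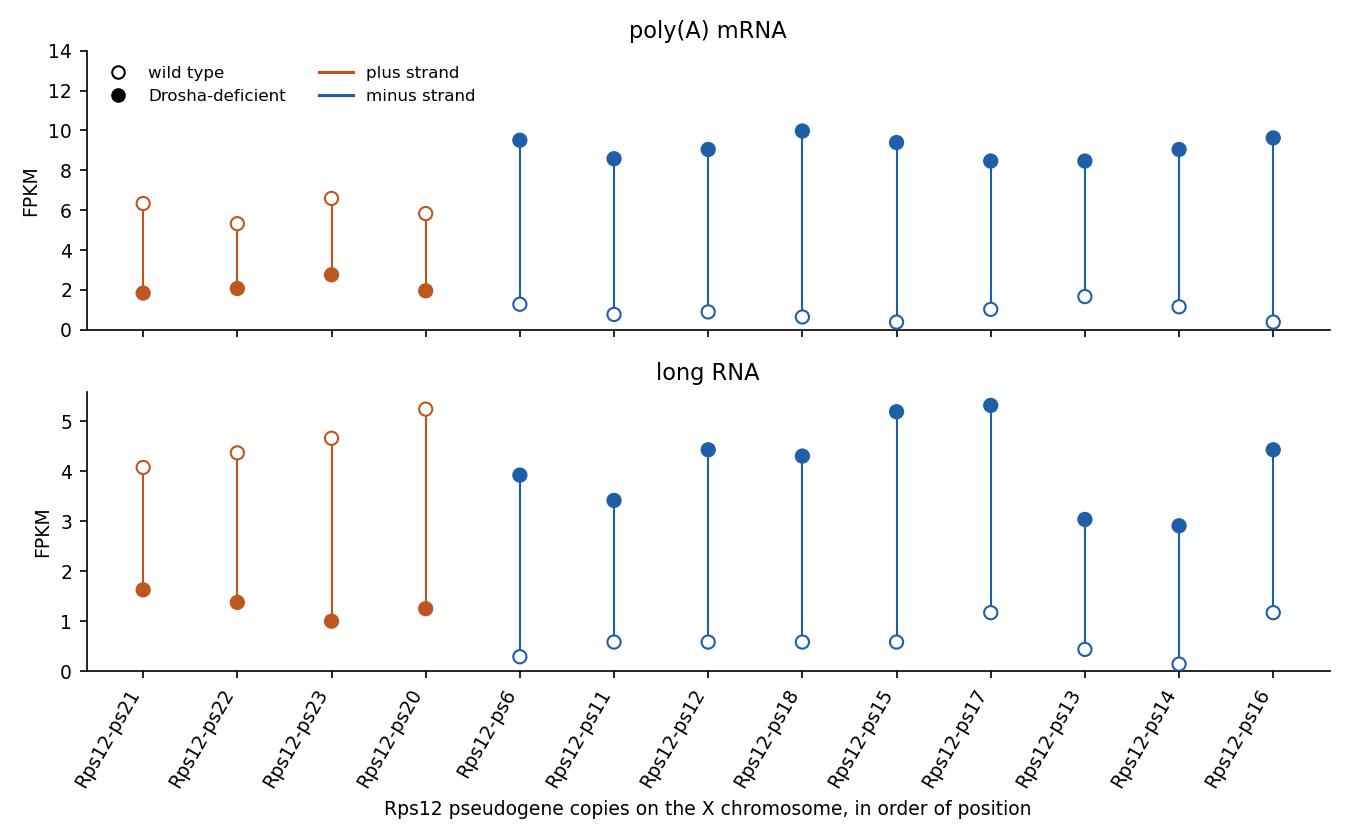
FPKM of the 13 Rps12 pseudogene copies on the X chromosome in order of position, in mRNA (top) and long RNA (bottom), with a line from the wild-type value (open circle) to the Drosha-deficient value (filled circle). The 4 plus-strand copies (orange) go down in every case and the 9 minus-strand copies (blue) go up, in mRNA to between 8.47 and 9.97 FPKM.

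Position inside another gene was examined as well. Of the 226 rows 57 lie inside another RefSeq gene. In mRNA 39 of 65 measured minus-strand rows that lie in no other gene were higher, and 20 of 68 plus-strand rows were lower. Rows inside another gene gave 9 of 19 and 10 of 23. A measured host gene existed for 22 rows in mRNA, of which 8 were called, while 2 of the hosts were called and none in the direction of its pseudogene. For long RNA 24 hosts were measured and none was called. Thus the division by strand was present in rows inside and outside other genes.

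Other genes of the ribosome and of translation were described from lists of textbook members. A list held 23 other transcripts with a 5' terminal oligopyrimidine tract, which gives mRNAs translational control shared with ribosomal protein mRNAs. Gas5 and Snhg1 among them are noncoding. Of the 23, 3 were lower in mRNA and none was higher, with a median log2 difference of -0.05. That is 13.04% called, below the 16.6% of all measured rows. The 3 were Naca (276 and 116 FPKM), Eef1g (222 and 106 FPKM) and Pabpc4 (47.7 and 13.5 FPKM), all on the plus strand. The most abundant, Gnb2l1, a scaffold protein of the small subunit, had 4069 and 3851 FPKM. Another list of 28 genes held ribosome assembly factors and genes of RNA polymerase I transcription. Of these, Rrn3 and Polr1b, both of the latter kind, were higher although they lie on the plus strand. Fbl, the methyltransferase of box C/D particles, also on the plus strand, was lower at 186 and 54.0 FPKM. The median over the 28 was 0.08, with 10.7% called. On the plus and minus strand the mRNA medians were -0.05 and -0.03 for the 23, and 0.15 and 0.04 for the 28. In long RNA 3 of the 23 and 1 of the 28 were lower and none was higher, 13.04% and 3.57% beside 13.1% of all measured rows.

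Of 9 coding paralogs of ribosomal protein genes 3 were called in mRNA, 33.3% beside 16.6% of all measured rows. These 3 followed the division by strand. Rpl10l (20.6 and 98.5 FPKM) and Rps27rt (44.4 and 167 FPKM), both on the minus strand, were higher in mRNA, and Rpl22l1 (645 and 270 FPKM), on the plus strand, was lower. The 3 had the same calls in long RNA. Not all uncalled paralogs went with their strand: of 5 on the plus strand 3 were below 0 in mRNA and 2 above. The 2 were Rps4l and Rpl39l, each at 0.63 in mRNA, and at 0.39 and 0.69 in long RNA. Among parents the largest differences in mRNA were those of Rps27, Rps29 and Rps6 on the minus strand, at 3.11, 2.84 and 2.60. On the plus strand they were those of Rpl10a, Rpl31 and Rpl12, at -1.93, -1.82 and -1.76.

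In short RNA 67 of the 226 rows were measured. Of these 25 were higher and 1 was lower, beside 14.8% higher and 18.4% lower (33.2% called) of 2597 measured rows, with a median log2 difference of 0.72. Of 29 minus-strand rows 18 were higher, and of 38 plus-strand rows 7 were, with medians of 1.53 and 0.52. Rpl36a-ps1 was listed at 0 in the wild-type library and at 11.3 FPKM in the Drosha-deficient library. The single row lower was Rps25-ps1, at 13.5 and 5.12 FPKM.

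The authors' deposited tables marked 19 rows as significant in mRNA and 19 in long RNA, and no pseudogene of a ribosomal protein was among them. The lowest q-value of such a row in the authors' deposited table was 0.402 in mRNA (Rps13-ps2) and 0.601 in long RNA (Rpl36-ps1). Those values rest on 1 library per genotype and compare the libraries, not the genotypes.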

How the data were processed

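Of 12 samples, 6 RNA libraries (wild-type and Drosha-deficient mRNA, long and short RNA) were used, and Dnmt1-deficient and DNA samples were not analysed here. Trizol extraction, kit separation of long from short RNA, oligo-dT selection of mRNA and small RNA library preparation are per the labels' protocols. By elimination, the long RNA table was taken to hold the samples titled total RNA. The submitters' processing notes name TopHat2 2.0.10, Cuffdiff, Cufflinks 2.1.1, bcl2fastq 1.8.4 and the build mm10/GRCm38. The sources used here do not give the annotation, the strand setting or the treatment of reads with several alignments. The authors deposited FPKM per row, per the file headers, with a p-value and q-value from 1 library per genotype.

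The log2 difference used a pseudocount of 1 FPKM, a minimum of 1 FPKM in 1 library and a size rule of 1. Count models do not suit FPKM, and with 1 library per genotype no test was possible. The 3 tables were normalized separately and levels were not compared between them. Library totals are not given. On equal-length rows 1 fragment stood for more FPKM in the wild-type library, 1.10 times in mRNA and 1.16 times in long RNA. Whether this reflects read depth or normalization was not tested. Strand came from row order, since each chromosome's starts run through at most 2 times. Gene classes came from the RefSeq table of GRCm38.p6, which names 222 of 226 members. No sequences are shown.

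Named rows were, per fraction, the 8 highest and 8 lowest differences and the 8 highest levels; members called alike in both fractions or at least 1 from the parent in both; the 6 largest families; parents of named rows; and per list the 3 most abundant genes and any called where at most 3 were. This gave 92 members, of which the text names those needed; families beyond the 6 largest, rows that go against their strand and single family members were named after their values had been seen. Members, lists and rule were chosen with earlier results of these data known. Alternatives were other pseudocounts, minima, status and size rules, centring, single-name rows and, added after seeing the data, single strands, strand-wise centring and removal of 13 Rps12 copies. Python 3.11.15, pandas 2.3.3, numpy 2.4.6, scipy 1.17.1 and matplotlib 3.10.9 were used.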

Additional observations from a re-analysis of the deposited data

Results flagged for a closer look

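In the short RNA libraries, which lie outside the main measurement, 25 pseudogene rows were higher in the Drosha-deficient library. Among them Rpl38-ps2 had 64.2 and 164 FPKM and Rps26-ps1 had 6.66 and 38.0 FPKM. Rpl10-ps3 was the only member marked significant in the authors' deposited table of short RNA, with a q-value of 0.00880.

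Parents that differed in sign between mRNA and long RNA, by at least 1 in log2 difference, numbered 3, and the difference between fractions was not tested. Rpl23a had 1.40 in mRNA and -0.61 in long RNA, Rps13 had 2.36 and -0.38, and Rpl17 had 1.62 and -0.15. No pseudogene row measured in both fractions met this condition.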

How the results depend on the processing

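Under every setting tried no plus-strand row was higher in mRNA or long RNA. With a pseudocount of 0.1 FPKM 3 minus-strand rows were lower in mRNA and 1 in long RNA, as also under a 1.5-fold size rule. That size rule gave 57 members lower in mRNA (54 on the plus strand) and 59 in long RNA (58), and 34 lower than their parent in long RNA. With a pseudocount of 5 FPKM 9 members were lower in mRNA, all on the plus strand, and in long RNA 24 were higher (24 on the minus strand), 11 lower (11 on the plus strand) and 11 lower than their parent. A minimum of 5 FPKM moved the mRNA median to -0.045. The other settings not marked below as added left the counts of members within 1.5 times and the medians within 0.1.

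The next settings were added after seeing the data. On the plus strand alone 0 members were higher in mRNA and long RNA, with medians of -0.69 and -0.77, and 1 and 0 were higher than their parent. On the minus strand alone 0 were lower, with medians of 1.22 and 1.13, and 2 and 0 were lower than their parent. Centred on the median of other pseudogenes of the same strand, 29 members were higher in mRNA (29 on the minus strand) and 11 lower (8 plus, 3 minus), with a median of 0.066, and 35 were higher than their parent. In long RNA 27 were higher (27 minus) and 6 lower (4 plus, 2 minus), with a median of 0.036, and 7 were lower than their parent. Without the 13 Rps12 copies 39 were higher and 26 lower in mRNA.

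Of the 184 values of named rows, 57 fell under the size rule with a pseudocount of 5 FPKM and 15 passed it anew with 0.1 FPKM; no called value changed sign. Rows of 1 to 3 FPKM rest on few fragments, and without replicates their spread is unknown. No paired analysis was possible because each genotype has 1 library per fraction.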
